A study of Mus musculus with 12 samples.

Results

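The genes of the mitochondrial respiratory chain and the ATP synthase were followed in 2 cell populations of mouse liver. Members were all probe sets whose single annotated gene symbol began with Nduf, Uqcr, Atp5, Cox4, Cox5, Cox6, Cox7 or Cox8 or was Cycs, Sdha, Sdhb, Sdhc or Sdhd. The rule used names and no measured value. It found 159 of 22626 probe sets, which belonged to 85 of 12393 genes. By role these were 33 genes of complex I, 4 of complex II, 8 of complex III, the gene of cytochrome c, 16 of complex IV, 17 of complex V and 6 of assembly and related factors. The last group held Cox7a2l and Ndufaf1, Ndufaf3, Ndufaf4, Ndufaf5 and Ndufaf7. Ndufa4, named as a complex I gene, was placed in complex IV, where its protein is now assigned.

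All mice were male C57BL/6N aged 12 weeks and carried no engineered allele according to the labels. Over 14 days one set drank water with phenobarbital at 50 mg/kg per day and the control set drank tap water. Hepatocytes, which are the parenchymal cells of the liver, and a fraction labelled mesenchymal cells were taken from each set, and RNA of every sample was hybridised to an Affymetrix 3′ expression array. This gave 4 groups of 3 arrays, hepatocytes on water, hepatocytes on phenobarbital, mesenchymal cells on water and mesenchymal cells on phenobarbital. The labels do not say whether each array stood for a separate animal, so a p-value here reflects only how far these samples scatter, which may be technical. Levels are log2 values, a difference of 1 is 2-fold, and 3 arrays a group limit the precision.

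The labelled populations were checked against cell type markers. All 12 hepatocyte markers were lower in mesenchymal cells, with a median log2 difference of −4.74 on water and −4.14 on phenobarbital. Their summed linear level was 203000 to 211000 in hepatocytes on water, 195000 to 199000 in hepatocytes on phenobarbital, 13600 to 28800 in mesenchymal cells on water and 19500 to 48000 in mesenchymal cells on phenobarbital, so these markers were reduced but still detected in the mesenchymal arrays. All 11 Kupffer cell markers and all 10 sinusoidal endothelial markers were higher in mesenchymal cells in both treatments. Only 5 of the 11 and 5 of the 10 reached a testable level in hepatocytes, so no size of difference is given for these markers. Of 12 listed markers of stellate cells, pericytes and fibroblasts 8 were tested, and 6 were higher in mesenchymal cells in each treatment and 1 was lower. Only 3 of the 12 reached a testable level in hepatocytes. The others that were tested entered through mesenchymal cells, so this count is a description. Markers of several cell types were detected in this fraction, so its values are averages over them. Of 5 T and NK cell markers 4 were higher in mesenchymal cells in each treatment, and only 1 of the 5 reached a testable level in hepatocytes. The 1 red cell marker tested differed by −4.04 on water and −3.66 on phenobarbital, with the higher level in hepatocytes. Of 2 tested muscle markers, 1 was higher and 1 lower in mesenchymal cells on water. In these bulk samples, fewer cells of a type and less RNA per cell cannot be told apart. Array 1 of water stood apart in both populations in clock genes. There the clock-driven factor Dbp read 6.21 in hepatocytes and 6.52 in mesenchymal cells, and it read between 11.60 and 12.15 on the other 10 arrays. Treatment was visible in Cyp2b10, the classical target of the phenobarbital-responsive receptor CAR, which was higher by 5.52 (SE 0.30) in hepatocytes. In mesenchymal cells it read 7.18, 7.395 and 7.19 on water and 9.39, 7.82 and 7.57 on phenobarbital and did not pass (1.004, SE 0.45, limma adjusted p = 0.998). The highest of these arrays, phenobarbital array 1, was also the mesenchymal array with the highest summed level of hepatocyte markers.

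The respiratory chain sits in the inner mitochondrial membrane. Complexes I and II pass electrons from NADH and succinate to ubiquinone, complex III passes them to cytochrome c and complex IV to oxygen, and the proton gradient that builds up drives ATP synthesis by complex V. Most subunits are encoded in the nucleus, and these are the genes measured here. Hepatocytes are rich in mitochondria. Nuclear factors such as NRF1 and the ETS protein GABP are known regulators of many of these genes.

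Promoters were matched for 71 of the 85 genes in RefSeq windows of build GRCm38.p6 that run from 250 bases before the start to 50 bases after it. The NRF1 motif, whose letters are the 10 capitals in the Atp5g2 line, reads the same on both strands. A gene counted once if any of its windows held the motif. This was so for 6 of 71 member genes (8.45%) and 1.82% of all 9882 array genes with a window. Counted by single windows, the share was 0.971% of all 32851. The ETS core CCGGAAG, searched on both strands, was present in 18 member genes (25.4%), against 16.4% of array genes and 8.86% of all windows. CCAAT, on both strands, was present in 29 (40.8%), against 42.3% and 37.4%. Of the member genes, 2 had a window that held both the NRF1 and the ETS sequence. These are matches of letters and not measured sites. The stretches just before the start are shown for the 3 genes of the ATP synthase c subunit, which held both the widest and the smallest difference of complex V, for Cox6a1, whose window held all 3 motifs, and for Cox7a2l, which went against the other members. Motifs are in capitals, read 5′ to 3′ along the gene.
Atp5g1, chr11:96075632-96075761, minus strand: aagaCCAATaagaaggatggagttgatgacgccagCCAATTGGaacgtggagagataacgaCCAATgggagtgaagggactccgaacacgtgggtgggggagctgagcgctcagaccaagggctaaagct
Atp5g2, chr15:102671048-102671177, minus strand: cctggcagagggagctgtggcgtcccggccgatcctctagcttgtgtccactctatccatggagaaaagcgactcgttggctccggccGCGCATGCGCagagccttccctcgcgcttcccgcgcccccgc
Atp5g3, chr2:73911327-73911456, minus strand: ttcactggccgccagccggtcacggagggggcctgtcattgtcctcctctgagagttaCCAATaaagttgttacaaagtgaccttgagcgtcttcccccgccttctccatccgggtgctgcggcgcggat
Cox6a1, chr5:115348959-115349128, minus strand: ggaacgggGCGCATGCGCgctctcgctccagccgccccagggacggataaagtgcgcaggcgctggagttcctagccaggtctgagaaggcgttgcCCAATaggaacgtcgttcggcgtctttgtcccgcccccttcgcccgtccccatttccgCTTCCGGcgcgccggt
Cox7a2l, chr17:83514334-83514463, minus strand: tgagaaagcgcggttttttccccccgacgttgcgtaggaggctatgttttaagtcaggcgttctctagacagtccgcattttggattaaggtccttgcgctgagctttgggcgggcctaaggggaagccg
In Atp5g1 a forward and a reverse CCAAT overlap, which gives the run of 8 capitals. The stretch of Cox7a2l held none of the 3 motifs.

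The first comparison asked how the populations differ, and differences are mesenchymal cells minus hepatocytes. On water, 80 of the 83 tested members were lower in mesenchymal cells and 2 were higher, while Cox7c did not pass (limma with Benjamini-Hochberg adjustment over all 9031 genes tested, threshold 0.05). Over all genes tested 40.7% passed as lower and 42% as higher. The median member difference was −0.97, which is 1.96-fold lower, against 0.02 over all genes. A 2-fold lower level that passed was seen for 41 members, against 18.8% of all genes. The 3 arrays of each population did not overlap, with mesenchymal cells lower, for 80 members, against 41.6% of all genes. Cox7a1 and Cox4i2, among the 80, entered the test only through their hepatocyte level. With only genes above the filter level in every array, 78 of 80 members were lower and 2 higher in each treatment, against 38.9% of all genes lower on water and 38.4% on phenobarbital. The normalization gives all arrays a common distribution, so each difference is measured against the other genes on the array. Centring each array on its median moved the all-gene median to −0.20 on water and the member median to −1.19. Centring shifts all genes of an array by the same amount, so the gap of −0.99 between the 2 medians could not change. Since 82.7% of all genes passed in either direction, passing as such said little about the members, and the direction and size carried the description. The hepatocyte markers above moved with this difference, and their part in the result was not tested.

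The same contrast on phenobarbital used other arrays and shared only the estimate of spread. Again 80 of 83 members were lower and 2 were higher, with a median of −1.03 (2.04-fold lower) against 0.03 over all genes, of which 40.9% passed as lower, 42.2% as higher and 83.1% in either direction. The 80 lower and the 2 higher members were the same genes in both treatments, where 38.4% of all genes passed as lower in both and 40% as higher in both. A 2-fold lower level was seen for 47 members here, against 19% of all genes. It was seen for 41 in both treatments, where the share of all genes was not counted. Mesenchymal arrays lay below all hepatocyte arrays for 81 members, against 42.2% of all genes. The correlation of the differences over the 83 members was 0.975, a description over genes measured on the same arrays. The widest gap between the treatments was 0.43, for Cox7c, and without hepatocyte water array 1 it was 0.13; the next was 0.39, for Atp5mpl.

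**Figure D1:**
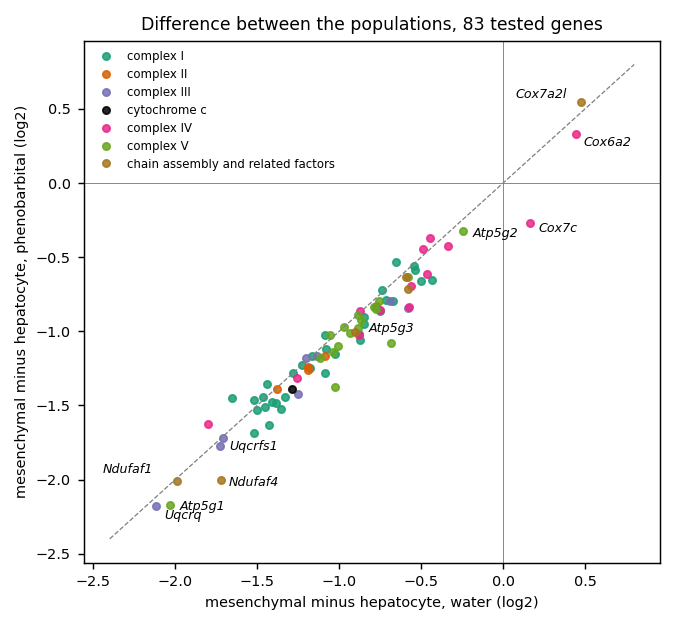
Difference between mesenchymal cells and hepatocytes (log2) on water (x axis) and on phenobarbital (y axis) for the 83 tested genes, coloured by role, with the line of equal difference dashed. Nearly all points lie below 0 on both axes and near the line, while Cox7a2l and Cox6a2 lie above 0 on both and Cox7c has opposite signs.

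The mean level over the 83 tested members was 11.75, 11.73 and 11.75 in the hepatocyte arrays on water and 11.77, 11.81 and 11.83 on phenobarbital. It was 10.81, 10.75 and 10.73 in mesenchymal cells on water and 10.78, 10.72 and 10.73 on phenobarbital. The populations were thus about 1 apart in each array, and the arrays of a group lay within 0.1 of each other. The median SD of the members was 0.056 to 0.075 in the 4 groups against 0.11 to 0.13 over all tested genes. These mean levels lay well above the array medians (7.19 to 7.44), and genes of like level were not compared.

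**Figure D2:**
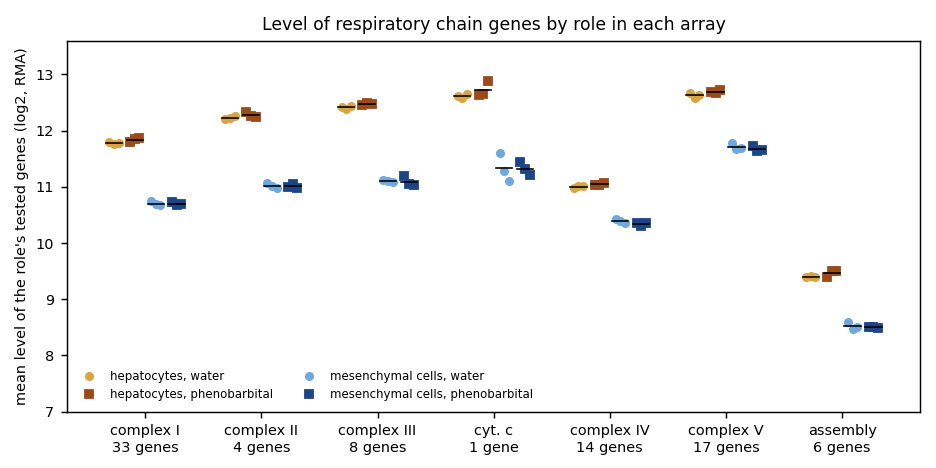
Mean level (log2) of the tested genes of each role in every array, with the group mean as a bar. In each role the 6 hepatocyte arrays lie above the 6 mesenchymal arrays.

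Complex I, the NADH dehydrogenase, was lower in mesenchymal cells in all 33 genes and both treatments. The median was −1.09 on water and −1.17 on phenobarbital, and the range on water was −1.65 to −0.43. Ndufs1, which carries iron-sulfur clusters, read 11.06, 11.01 and 11.15 in hepatocytes on water and 9.73, 9.74 and 9.60 in mesenchymal cells. The groups did not overlap, and the level was 2.62-fold lower in mesenchymal cells (log2 difference −1.39, SE 0.07, limma adjusted p = 3.83e-09). Ndufv1, the subunit that binds NADH and FMN, read 12.11, 12.09 and 12.09 against 10.32, 10.49 and 10.52. It had the widest difference of the complex on water, −1.65 (SE 0.07), and −1.45 on phenobarbital. At the other end was Ndufa7, an accessory subunit, with 11.53, 11.54 and 11.58 against 11.20, 11.10 and 11.05, a difference of −0.43 on water and −0.66 on phenobarbital.

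Complex II, succinate dehydrogenase, which is shared with the TCA cycle, was lower by a similar amount in each of its 4 subunits. Differences on water ran from −1.38 to −1.09. The flavoprotein Sdha read 12.60, 12.67 and 12.72 in hepatocytes and 11.52, 11.60 and 11.61 in mesenchymal cells, and the iron-sulfur subunit Sdhb read 12.65, 12.62 and 12.66 against 11.47, 11.47 and 11.42. The membrane anchors Sdhc (−1.38, SE 0.08) and Sdhd (−1.19, SE 0.08) lay close to them. The ranges of hepatocytes and mesenchymal cells did not overlap for any of the 4.

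In complex III all 8 genes were lower, with a median of −1.23 on water and −1.30 on phenobarbital. Uqcrq, a small accessory subunit, had the widest difference of all members. It read 12.54, 12.41 and 12.50 in hepatocytes on water, 12.41, 12.57 and 12.47 in hepatocytes on phenobarbital, 10.49, 10.34 and 10.27 in mesenchymal cells on water and 10.47, 10.26 and 10.18 in mesenchymal cells on phenobarbital. The 6 hepatocyte arrays were near 12.5 and the 6 mesenchymal arrays near 10.3, which is 4.34-fold lower on water (log2 difference −2.12, SE 0.09, limma adjusted p = 1.33e-09) and 4.52-fold on phenobarbital. The Rieske iron-sulfur protein Uqcrfs1 differed by −1.73 (SE 0.07) and −1.77, and the core subunit Uqcrc1 by −1.20 (SE 0.11) and −1.18. The smallest difference was that of Uqcrb, which read 13.89, 13.77 and 13.80 against 13.31, 13.19 and 13.21, a log2 difference of −0.58 from a level near the top of the scale. Cytochrome c, the mobile carrier between complexes III and IV, differed by −1.29 (SE 0.12) on water. Its gene Cycs read 12.62, 12.58 and 12.64 in hepatocytes and 11.60, 11.29 and 11.10 in mesenchymal cells, where the arrays spread more.

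Complex IV, cytochrome c oxidase, differed less and less evenly. Of its 14 tested genes 12 were lower and 1 was higher on water, with a median of −0.57, and 2 were lower by 2-fold or more. Over the 11 genes above the filter level in every array, 10 were lower and 1 was higher, and only Ndufa4 was lower by 2-fold or more. Several subunits exist as isoforms named for their main tissue. The ubiquitous isoforms were abundant and lower in mesenchymal cells. Cox4i1 read 12.997, 13.08 and 13.04 in hepatocytes on water against 12.58, 12.60 and 12.59 (difference −0.45, SE 0.05). Cox6a1 differed by −0.49 (SE 0.05), Cox6b1 by −0.75 (SE 0.06), Cox7a2 by −0.88 (SE 0.07) and Cox8a by −0.46 (SE 0.06). Ndufa4 was lower by more, −1.26 (SE 0.06), with 13.01, 12.94 and 12.93 against 11.74, 11.72 and 11.65.

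The isoforms known from heart, muscle, lung or testis lay near the lower end of the scale, except Cox8c. This testis isoform read 8.47, 8.54 and 8.70 in hepatocytes on water against 7.95, 7.97 and 8.08 in mesenchymal cells. The difference of Cox8c was −0.57 (SE 0.095) on water and −0.83 on phenobarbital, and it passed in both. The heart and muscle isoform Cox7a1 read 7.15, 6.95 and 6.81 in hepatocytes on water and 5.13, 5.12 and 5.26 in mesenchymal cells. The lung isoform Cox4i2 read 6.799, 7.08 and 7.04 against 6.44, 6.52 and 6.26. For both, the mesenchymal arrays lay below the 40th percentile of their array (6.64 to 6.68), the level under which genes were filtered, so they passed that filter through hepatocytes alone and no size of difference is given. Cox8b and the testis isoform Cox6b2 were not tested, since they did not exceed this percentile in 3 arrays. Cox6a2, the heart and muscle form of subunit 6a, went the other way, with 6.94, 6.94 and 6.93 in hepatocytes on water and 7.50, 7.30 and 7.35 in mesenchymal cells. The groups did not overlap, and it was 1.36-fold higher in mesenchymal cells (log2 difference 0.44, SE 0.11, limma adjusted p = 0.00368). On phenobarbital the difference was 0.33 (SE 0.11, limma adjusted p = 0.0184). The call of Cox6a2 did not hold when arrays were centred on their median (0.23 on water and 0.10 on phenobarbital, limma adjusted p = 0.0944 and 0.44), and on phenobarbital it did not hold without hepatocyte array 2, mesenchymal array 1 or mesenchymal array 3 (0.26, 0.27 and 0.27) or with the 6 arrays of that treatment fitted alone (0.33, limma adjusted p = 0.0521). Cox7c was measured at a low level, with 6.56, 7.42 and 7.51 in hepatocytes on water and 7.56, 7.25 and 7.17 in mesenchymal cells. Its difference on water was 0.17 (SE 0.22), and without hepatocyte array 1 it was −0.14. The other probe set of Cox7c read 5.05, 5.70 and 5.58 in hepatocytes on water. How well these probe sets report the level of the gene was not tested.

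**Figure D3:**
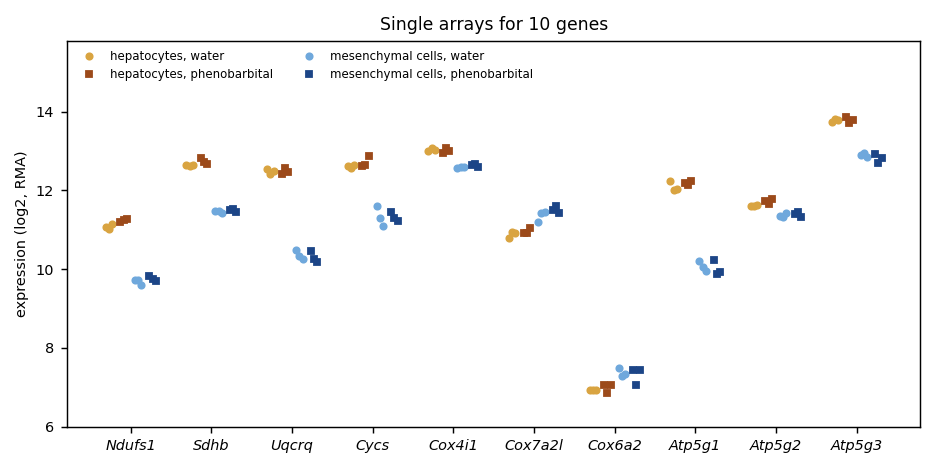
Expression (log2) on every array for 10 genes, with hepatocytes in yellow and brown and mesenchymal cells in light and dark blue (circles water, squares phenobarbital). For 8 of the genes the hepatocyte points lie above all mesenchymal points, for Cox7a2l they lie below them, and for Cox6a2 they lie below with little distance on phenobarbital.

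Complex V, the ATP synthase, was lower in mesenchymal cells in all 17 genes, with a median of −0.89 on water and −0.98 on phenobarbital. The catalytic beta subunit Atp5b read 13.63, 13.74 and 13.78 in hepatocytes on water and 12.78, 12.71 and 12.73 in mesenchymal cells, a difference of −0.97 (SE 0.06). The alpha subunit Atp5a1 read 13.33, 13.35 and 13.45 against 12.72, 12.56 and 12.57, a difference of −0.76 (SE 0.07).

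The widest and the smallest difference of complex V came from genes for the same protein. Atp5g1, Atp5g2 and Atp5g3 each encode the c subunit that forms the membrane rotor; their mature proteins are identical and they differ in the targeting peptide that is cut off in the mitochondrion. Atp5g1 read 12.25, 12.01 and 12.04 in hepatocytes on water, 12.18, 12.14 and 12.23 in hepatocytes on phenobarbital, 10.22, 10.04 and 9.95 in mesenchymal cells on water and 10.23, 9.87 and 9.94 in mesenchymal cells on phenobarbital. It was 4.09-fold lower in mesenchymal cells on water (−2.03, 95% interval −2.27 to −1.80) and 4.51-fold lower on phenobarbital. Atp5g2 read 11.62, 11.60 and 11.63, then 11.73, 11.66 and 11.77, then 11.34, 11.34 and 11.44, and then 11.40, 11.46 and 11.33 in the same order of groups. It was 1.18-fold lower on water (−0.24, 95% interval −0.38 to −0.11) and 1.25-fold lower on phenobarbital. With the mean of its probe sets in place of the brightest, the phenobarbital difference of Atp5g2 was −0.14 and did not pass (limma adjusted p = 0.0932). Atp5g3 read 13.73, 13.80 and 13.80 in hepatocytes on water and 12.90, 12.94 and 12.84 in mesenchymal cells, which is 1.84-fold lower (−0.88, 95% interval −1.03 to −0.73).

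The shift of Atp5g1 between the populations was wider than that of Atp5g2 by 1.79 on water and by 1.85 on phenobarbital. Between Atp5g1 and Atp5g3 the shift differed by 1.15 and 1.20, and between Atp5g3 and Atp5g2 by 0.64 and 0.65. These genes were singled out after their values were seen, so the gaps are given as a description with no test. The stretch printed for Atp5g1 held 4 CCAAT matches, that of Atp5g3 held 1, and that of Atp5g2 held none but the NRF1 sequence at bases −42 to −33; no relation of these letters to the levels was tested.

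Among assembly and related factors the sign was mixed. Ndufaf1, an assembly factor of complex I, read 9.93, 9.88 and 9.84 in hepatocytes on water and 7.99, 7.81 and 7.88 in mesenchymal cells and was 3.98-fold lower there (−1.99, SE 0.08). Ndufaf4, another such factor, differed by −1.72 (SE 0.15) on water and −2.00 on phenobarbital. Cox7a2l, described as a factor that joins complexes III and IV into supercomplexes, was higher in mesenchymal cells. Whether its protein has this role in the strain used was not tested. Cox7a2l read 10.80, 10.95 and 10.91 in hepatocytes on water and 10.92, 10.93 and 11.05 in hepatocytes on phenobarbital. In mesenchymal cells it read 11.19, 11.44 and 11.46 on water and 11.51, 11.59 and 11.43 on phenobarbital. Every mesenchymal array lay above every hepatocyte array, and the difference was 0.48 (SE 0.09) on water and 0.54 on phenobarbital (limma adjusted p = 0.000284 and 9.63e-05). The 2 further probe sets of Cox7a2l were also higher on water, by 0.39 and 0.26. Of the 74 further probe sets of members 65 were tested on water, and 60 passed as lower and 2, those of Cox7a2l, as higher.

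The median difference was not the same at all levels. For the 10 members below 10 in hepatocytes on water the median difference was −0.58, for the 29 from 10 to 12 it was −1.17, for the 30 from 12 to 13 it was −1.10 and for the 14 above 13 it was −0.77. The highest value in the table was 15.2, so the most abundant members lay near the top of the measured range, and the part of saturation in their smaller difference was not tested.

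Other mitochondrial genes were compared by lists. Assembly and cofactor genes of the chain were lower in mesenchymal cells on water in 34 of 38 tested, none was higher, and the median was −0.97. They included Sco2, which delivers copper to complex IV (−2.65, SE 0.17), and Etfdh, which feeds electrons from fatty acid oxidation into ubiquinone (−2.50, SE 0.08). Mitochondrial ribosomal proteins were lower in 68 of 74 (median −0.82), with Mrpl12 at −2.03 (SE 0.07), and higher in 2, Mrpl3 (0.79) and Mrps6 (0.44). TCA cycle enzymes were lower in 11 of 15 (median −1.06), with fumarase Fh1 at −2.57 (SE 0.08) and the succinyl-CoA ligase subunit Suclg2 at −2.42 (SE 0.11). Citrate synthase Cs was higher by 0.37 (SE 0.11) and Idh3g by 0.23 (SE 0.08). On phenobarbital Cs was higher by 0.64 and Idh3g differed by −0.01. Centring arrays on their median moved the all-gene median on water from 0.02 to −0.20. It lowers every difference by the same amount, including the higher values given here.

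Regulators and carriers were less uniform. Of 16 tested regulators of mitochondrial biogenesis 10 were lower on water and 2 were higher (median −0.51). Ppargc1a, a coactivator of respiratory genes, read 7.82, 7.79 and 8.35 in hepatocytes on water and 4.68, 5.02 and 4.81 in mesenchymal cells, below the percentile used as a filter. Ppara, the receptor that drives fatty acid oxidation, read 9.91, 10.93 and 11.01 against 5.39, 5.94 and 5.50, also below it. Both entered the test through hepatocytes alone. The related coactivator Pprc1 was higher by 0.64 (SE 0.17) and Nrf1, the gene of the factor whose motif was searched, by 0.39 (SE 0.14). Centring arrays on their median lowers these 2 differences as well. Of 13 tested carriers and channels 10 were lower and 2 were higher. The ADP/ATP carrier Slc25a4 read 5.72, 6.12 and 6.07 in hepatocytes on water and 10.83, 11.18 and 11.32 in mesenchymal cells, where the hepatocyte level lay below the filter percentile (6.54 to 6.60). It entered the test through mesenchymal cells alone, so no size of difference is given. Its relative Slc25a5 read 13.42, 13.51 and 13.47 against 13.19, 13.14 and 13.02 and differed by −0.35 (SE 0.07). The channel Vdac2 was higher by 0.58 (SE 0.07), and its relative Vdac1 differed by −0.98 (SE 0.06). The aspartate and glutamate carrier Slc25a13 differed by −4.64 (SE 0.20) and the pyruvate carrier subunit Mpc1 by −2.35 (SE 0.09).

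**Figure D4:**
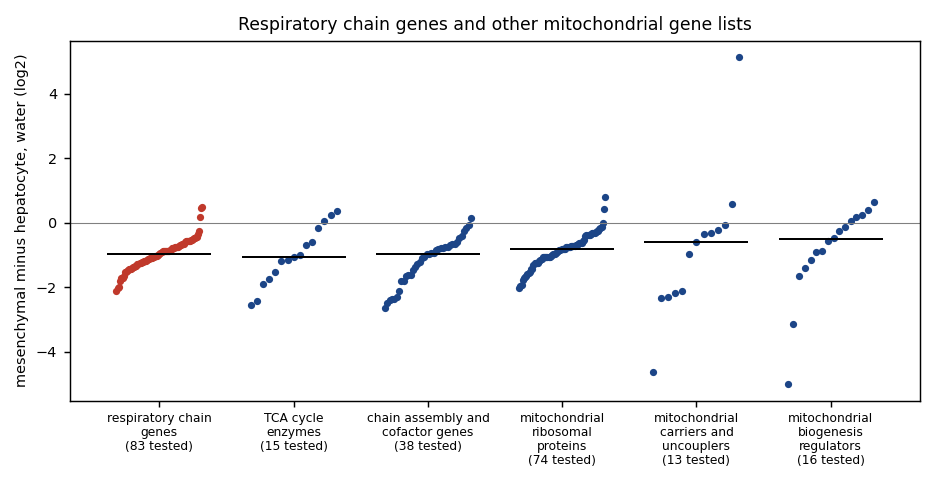
Difference between mesenchymal cells and hepatocytes on water (log2) for each tested respiratory chain gene (red) and each gene of 5 other mitochondrial lists (blue), sorted within a list, with the median as a bar. The medians lie between −1.06 and −0.51, and the highest point is Slc25a4, whose hepatocyte level lay below the filter percentile.

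The second comparison asked whether phenobarbital changed these genes. In hepatocytes none of 83 tested members passed, the smallest adjusted p in limma being 0.501. Below 0.05 before adjustment were 4 members, all higher. Over all 8117 genes tested 0.0493% passed, 8.38% had an unadjusted p under 0.05 and 3.84% had one and were higher. The median member difference was 0.06 against −0.00 over all genes, and 65 members had a positive and 18 a negative difference, where 49% of all genes had a positive one. Groups did not overlap for 13 members with the higher level on phenobarbital and for 2 with the lower, against 6.92% and 8.14% of all genes. The 95% interval lay within −0.5 and 0.5, which is 1.41-fold either way, for 80 of the 83. Leaving out 1 array at a time left 57 to 68 members positive and the median between 0.04 and 0.08, and without water array 1 it was 65 and 0.08.

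**Figure D5:**
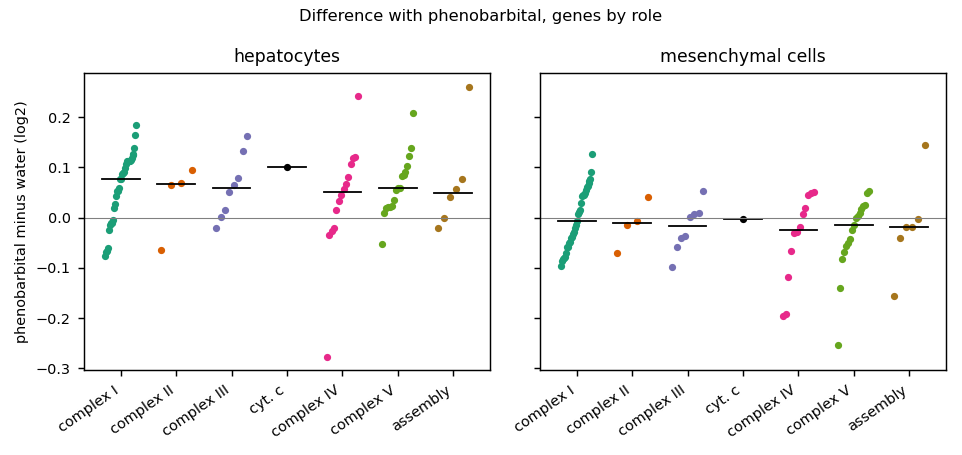
Difference between phenobarbital and water (log2) in hepatocytes (left) and mesenchymal cells (right) for each tested gene, sorted within its role, with the median of the role as a bar. In hepatocytes the medians of the roles lie between 0.05 and 0.10, and in mesenchymal cells between −0.02 and 0.

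By role, positive differences in hepatocytes were seen for 24 of 33 genes of complex I (median 0.08), 3 of 4 of complex II (0.07), 7 of 8 of complex III (0.06), 10 of 14 of complex IV (0.05), 16 of 17 of complex V (0.06), Cycs (0.10) and 4 of 6 assembly factors (0.05). The smallest p belonged to Atp5md, a small subunit of ATP synthase dimers, which read 11.20, 11.15 and 11.22 on water and 11.45, 11.35 and 11.40 on phenobarbital. The groups did not overlap, and the difference was 0.21 (95% interval 0.05 to 0.36, limma adjusted p = 0.501). Uqcrb of complex III read 13.89, 13.77 and 13.80 against 14.01, 13.98 and 13.96, a difference of 0.16 (limma adjusted p = 0.507). Ndufs3, a core subunit of complex I, read 11.98, 11.98 and 11.99 against 12.15, 12.10 and 12.13, a difference of 0.14 (limma adjusted p = 0.592). Ndufs1, also of complex I, had the fourth unadjusted p under 0.05, with a difference of 0.17.

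On the negative side, Cox7a1 read 7.15, 6.95 and 6.81 on water and 6.77, 6.67 and 6.64 on phenobarbital. The groups did not overlap, and the difference was −0.28 (95% interval −0.56 to 0.01, limma adjusted p = 0.604), at a level close to the filter. Ndufv1 differed by −0.08 with groups that did not overlap, and Ndufc1, an accessory subunit of complex I, by −0.07. Leaving out 1 array moved Cox7a1 between −0.36 and −0.19, Ndufv1 between −0.11 and −0.04 and Ndufc1 between −0.11 and −0.04. Beside these values, 10 of the 12 hepatocyte markers had a negative difference in the same comparison (median −0.06), and none passed.

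The other mitochondrial lists had no member that passed in hepatocytes. Differences were positive for 37 of 74 mitochondrial ribosomal proteins (median 0.00), 22 of 38 assembly and cofactor genes (0.01), 10 of 15 TCA cycle enzymes (0.05), 8 of 12 carriers (0.06) and 11 of 16 biogenesis regulators (0.05). Among the biogenesis regulators 6 of 16 had groups that did not overlap with the higher level on phenobarbital, 37.5% against 6.92% of all genes, and 4 fell under 0.05 before adjustment in limma. These 4 were Ppargc1b, a coactivator (0.66, SE 0.26), Polg2, a subunit of the mitochondrial DNA polymerase (0.35, SE 0.15), the nuclear receptor Esrra (0.29, SE 0.09) and Tfam, the packaging factor of mitochondrial DNA (0.20, SE 0.08). Their limma adjusted p ran from 0.485 to 0.591, and they are named because of these values. The mean level of the 16 regulators was 8.93, 9.07 and 9.12 on water and 9.22, 9.16 and 9.14 on phenobarbital. It was lowest on water array 1, which stood apart in clock genes, and the part of that array was not tested.

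In mesenchymal cells none of 81 tested members passed (adjusted p of at least 0.998 in limma), and no member fell under 0.05 before adjustment either. Of all 8003 genes 0% passed and 2.9% fell under 0.05 before adjustment. Positive differences were seen for 34 members and negative ones for 47, with a median of −0.02 against 0.00 over all genes, where 51.8% of genes were positive. Groups did not overlap for 2 members with the higher level on phenobarbital, Ndufb10 and Ndufs8, and for 4 with the lower, Uqcrb, Cox8c, Atp5e and Atp5md, against 4.09% and 3.61% of all genes. Without water array 1 of mesenchymal cells 49 were positive and the median was 0.01. The 95% interval lay within −0.5 and 0.5 for 80 of the 81. Cox4i2 and Cox7a1 were not tested here because of their low level.

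The smallest p in mesenchymal cells was that of Cox8c, known as a testis isoform of complex IV, which read 7.95, 7.97 and 8.08 on water and 7.78, 7.70 and 7.93 on phenobarbital, a difference of −0.20 (95% interval −0.40 to 0.01). Atp5md read 10.19, 10.14 and 10.16 against 9.97, 9.998 and 10.11 and differed by −0.14. Atp5mpl, another small ATP synthase subunit, read 11.38, 11.02 and 11.40 against 11.14, 10.80 and 11.10 and differed by −0.25. The groups of Cox8c and Atp5md did not overlap and those of Atp5mpl did. Among the positive ones, Ndufs8, an iron-sulfur subunit of complex I, differed by 0.09, Cox7a2l by 0.15 and Ndufv1 by 0.13. Leaving out 1 array moved Cox7a2l between 0.06 and 0.19, Ndufv1 between 0.07 and 0.17 and Atp5mpl between −0.38 and −0.15, and the lowest values of Cox7a2l and Ndufv1 were those without water array 1. Beside these values, 11 of the 12 hepatocyte markers had a positive difference in the same comparison (median 0.51), and none passed. They varied between the mesenchymal arrays, with a mean level of 8.93, 10.05 and 9.87 on water and 10.78, 9.83 and 9.44 on phenobarbital, and their part in these differences was not tested.

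The third comparison asked whether the populations responded differently. None of the 83 tested members passed in the difference of the phenobarbital effects, where the smallest adjusted p in limma was 0.868. Before adjustment 4 fell under 0.05, all with the more positive effect in hepatocytes. Over all genes 0% passed, 5.45% fell under 0.05 before adjustment and 2.5% did so with the more positive effect in hepatocytes. The effect in hepatocytes was the more positive for 66 members, with a median difference of 0.07, where 47.2% of all genes were on that side. Without water array 1 of both populations it was 62 members and 0.05. The 4 were Atp5md (0.35, SE 0.09), Uqcrb (0.26, SE 0.08), Ndufs3 (0.17, SE 0.07) and Atp5mpl (0.39, SE 0.18). On the other side the smallest p values belonged to Ndufv1 (−0.20), Ndufb7 (−0.12), a subunit of complex I, and Cox7a1. Cox7a1 lay below the filter level in every mesenchymal array. It entered this fit through hepatocytes alone, so no size of difference is given for it.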

How the data were processed

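The authors deposited log2 expression values for 22626 probe sets and 12 arrays. Per the submitters' processing notes they used RMA, a method that subtracts background, gives arrays one distribution and combines the probes of a set; no version was found in the labels. Neither scan nor hybridisation batches are known, and none was modelled. Gene names came from the platform annotation; those with several symbols (8 for this family) were left out. Each gene was represented by its probe set of highest mean. Genes above the 40th percentile in at least 3 of the arrays fitted were tested with limma 3.58.1 (lmFit, eBayes with intensity trend, R 4.3.3), and Benjamini-Hochberg adjustment ran over all genes tested, with a threshold of 0.05. Phenobarbital comparisons used the 6 arrays of a population and the others all 12. The code was tested on simulated data.

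Members, gene lists and tests were chosen with earlier results of these data known. Named genes were fixed isoforms and core subunits. They also held up to 5 of each sign with the widest difference that passed without overlap, or 3 of each sign with the smallest p. Each list gave up to 2 of each sign. Chosen after their values were seen were Cox7c, Ndufa7, Uqcrb as the smallest difference of its complex, Atp5g2, Atp5g3, Slc25a5, Vdac1 and Dbp. So were Ppargc1b, Polg2, Esrra, Tfam, Ndufs1 among the phenobarbital differences and Cox8c between the populations. On water, deviations of each hepatocyte array from its group mean correlated most with the mesenchymal array of the same number (0.197, 0.175 and 0.149). In no other pair of groups did this hold for every number. The labels give no pairing, and array 1 of water stood apart in clock genes in both populations. Whether the numbers mark shared animals was not tested. Alternatives changed the filter, probe set rule, scaling, variance model, weights, block and arrays included. Promoters came from RefSeq.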

Additional observations from a re-analysis of the deposited data

Results flagged for a closer look

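In 2 genes every hepatocyte array on phenobarbital lay above every hepatocyte array on water, while every mesenchymal array on phenobarbital lay below every mesenchymal array on water. Atp5md differed by 0.21 in hepatocytes and by −0.14 in mesenchymal cells, and Uqcrb by 0.16 and −0.10. The difference between the effects was tested in the fit over all 12 arrays and did not pass for either gene (0.35 and 0.26, limma adjusted p = 0.868 and 0.870). Within the populations neither gene passed.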

How the results depend on the processing

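Under every alternative tried no member passed in either phenobarbital comparison or in their difference, and 78 to 82 members passed as lower in mesenchymal cells on water and on phenobarbital (82 without the filter, 78 with genes above the percentile in every array). The member median on water was −0.93 without the filter, −1.01 with the mean of a gene's probe sets and −1.19 with arrays centred on their median, and it ran from −0.99 to −0.94 when 1 array was left out. On phenobarbital it was −1.26 with centred arrays and ran from −1.07 to −1.03. Members passing as higher fell from 2 to 1 with centred arrays in both treatments and, on phenobarbital, with the 6 arrays of that treatment alone; leaving out 1 array gave 1 to 2 on phenobarbital and 2 on water. The member lost was Cox6a2. Atp5g2 on phenobarbital did not pass with the mean of a gene's probe sets (−0.14). The difference of Cox7c on water turned from 0.17 to −0.0497 with centred arrays, −0.10 with array weights, −0.14 without hepatocyte water array 1 (leaving out 1 array gave −0.14 to 0.34) and −0.25 without water array 1 of both populations, a setting chosen after seeing the data. With the replicate block, which fits arrays of the same number as pairs, 80 members were lower and 2 higher in both treatments. The block changed no other call. Levels near the filter (Cox4i2, Cox7a1, Cox6a2, Cox7c) and near the top of the scale limit what the arrays resolve.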
